A study of Homo sapiens with 6 samples.

Results

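COLEC10, COLEC11, COLEC12, MASP1 and MASP2 are genes of collectins and of the serine proteases that collectins activate, and they were followed here in the established ovarian cancer line HEY, of human origin. The members were 5 of the 58735 genes of the deposited table, taken by their gene names. COLEC10 was chosen because its level in this same comparison differed more than that of other genes, and the other members because they belong to its pathway. All values of the members from this comparison are therefore descriptions, and no test of them is given. PolyA RNA was sequenced from 3 libraries of HEY cells overexpressing miR-200a and 3 libraries of HEY cells with the empty vector. Serum-supplemented RPMI-1640 was the medium of both groups, and all libraries carried batch number 1. By the labels the miR-200a cells were incubated for 48, 49 and 50 h and the vector cells for 51, 52 and 53 h. Time in culture and group therefore cannot be told apart. The hours rise by 1 from library to library, and whether they are true times is not known. The labels name neither the promoter of the construct nor whether either line was 1 clone, and do not tie the libraries to separate cultures, so the spread and the p-values below may be technical.

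The lectin pathway is the branch of complement that starts when a soluble lectin binds sugars on a microbe or a damaged cell. Collectins, which join a collagen-like stalk to a C-type lectin domain, and ficolins carry the MASP proteases, and active MASP-2 cleaves C4 and C2. COLEC10 encodes collectin liver 1 and COLEC11 collectin kidney 1, which form mixed oligomers in plasma and are best known from liver, kidney and adrenal gland. Inherited loss of COLEC10, COLEC11 or MASP1 causes the craniofacial disorder 3MC syndrome. COLEC12 encodes a collectin that stays in the membrane and acts as a scavenger receptor.

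The overexpressed microRNA and the 7-base sites it can pair with are shown because they were searched for in the members' transcripts. The mature sequences below are from RefSeq (GRCh38.p14), 5′ to 3′, and capitals mark the seed, bases 2 to 8. miR-141-3p is shown because its seed is the same as that of miR-200a-3p, while miR-200a-5p comes from the other arm of the miR-200a hairpin.
miR-200a-3p: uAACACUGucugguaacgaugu
miR-141-3p: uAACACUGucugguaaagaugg
miR-200a-5p: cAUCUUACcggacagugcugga

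No member carried a site for the full miR-200a-3p seed. The letters CAGTGTT, which pair with bases 2 to 8, were in 0 of the 2 annotated transcripts of COLEC10, 0 of 13 of COLEC11, 0 of 3 of COLEC12, 0 of 15 of MASP1 and 0 of 4 of MASP2 in GENCODE 29, read on the transcript strand and over the whole transcript. Over all 19146 genes with an annotated 3′ UTR, 18.3% held CAGTGTT in their longest one. The 3′ UTR of COLEC10 is short, at 391 bases, and 3.13% of the 1727 3′ UTRs within 20% of that length held the 7-mer. That of COLEC12 is 3305 bases long, and 36.2% of 2068 3′ UTRs of like length held it. The shorter match AGTGTT, which pairs with bases 2 to 7 and lies inside CAGTGTT, was absent from COLEC10 and MASP2 transcripts and present once in the 3′ UTRs of COLEC11, COLEC12 and MASP1. The site of miR-200a-5p, GTAAGAT, was present once in the 3′ UTR of COLEC12 and in no 3′ UTR of the other members. The shares of 3′ UTRs as long as that of COLEC12 with these letters were 69.7% for AGTGTT and 15.3% for GTAAGAT. The COLEC12 matches are printed below on the transcript strand of GRCh38, from the GENCODE transcript, with the match in capitals.
COLEC12 AGTGTT window, chr18:319894-319917, minus strand: attgacagctAGTGTTttttacca
COLEC12 GTAAGAT window, chr18:318361-318385, minus strand: atgctcaaagGTAAGATttccatcc
A match is a description of the sequence and was not shown to be a site in these cells.

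The libraries held 15849592 to 21003858 reads on genes, recovered from the deposited FPKM values (fragments per kilobase of gene at a common library size, the authors' unit), and 12130 to 12297 genes reached 1 FPKM. The precursor gene MIR200A, the check of the labels, had 5, 4 and 11 reads with overexpression and 0 in each vector library. Library 2 of the miR-200a group stood apart: over the 12231 genes with at least 1 FPKM in at least 3 libraries, called tested below, its log2(FPKM + 1) values correlated at 0.986 with vector 2 and at 0.979 and 0.978 with the other miR-200a libraries. Of 10 ovarian cancer cell markers, KRT7, KRT8, KRT18, PAX8, SOX17 and MSLN passed the FPKM filter, WT1 and EPCAM stayed below it, and MUC16 and CDH1 were listed at 0 in all 6 libraries. The list summed to 403 to 506 FPKM with miR-200a and 351 to 390 with the vector, and its part in the results below was not tested. Markers of other cell types were low, apart from 2 of 5 endothelial markers. The 8 hepatocyte markers summed to 0.542 to 0.870 FPKM with miR-200a and 0.762 to 0.938 with the vector, with APOA2, TTR and FGB at 0. The 6 immune markers summed to 0.0355 to 0.138 FPKM with miR-200a and 0.0634 to 0.157 with the vector, with CD3E at 0. The 8 fibroblast and stellate cell markers summed to 1.81 to 2.14 and 1.69 to 1.90 FPKM, with COL3A1 at 0. The RGS5 entry in that last sum is annotated as an antisense gene and averaged 0.747 FPKM over all libraries. Of the endothelial markers CDH5 and TIE1 were expressed, the list summing to 93.7 to 129 FPKM with miR-200a and 89.7 to 105 with the vector, while PECAM1 and KDR averaged 0.329 and 0.220 FPKM over all libraries.

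COLEC10 was the member with the highest level in vector cells and the one that differed most. COLEC10 (ENSG00000184374, chromosome 8, 118995452 to 119106582, GRCh38, plus strand) stood at 40.3, 37.1 and 34.9 FPKM in vector libraries 1 to 3. With miR-200a it stood at 4.90, 6.75 and 5.42 FPKM in libraries 1 to 3. The groups lay far apart, and the highest miR-200a library was library 2. The means were 37.4 ± 2.73 FPKM with the vector and 5.69 ± 0.956 with miR-200a (SD, n = 3 each), a level 84.8% lower, or -2.53 as a difference in log2(FPKM + 1). In bulk RNA, fewer expressing cells and less COLEC10 RNA per cell cannot be told apart.

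In whole reads, COLEC10 had 1418, 1107 and 943 in the vector libraries and 149, 180 and 169 in the miR-200a libraries. Counting alone would give a coefficient of variation of about 2.94% at the vector depth and 7.76% at the miR-200a depth. The observed coefficients of variation between libraries were 7.29% and 16.8%, each from 3 libraries and with no interval. By level COLEC10 was gene number 926, 1071 and 1125 of the table in vector libraries 1 to 3, and gene number 6912, 5626 and 6535 in miR-200a libraries 1 to 3. Among the 12231 tested genes its log2 difference was the lowest. Next in order came MT-TM, RF00019, RNU6-12P and MIR6783, all small RNA genes, between -1.94 and -1.34, named here because they follow it.

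**Figure D1:**
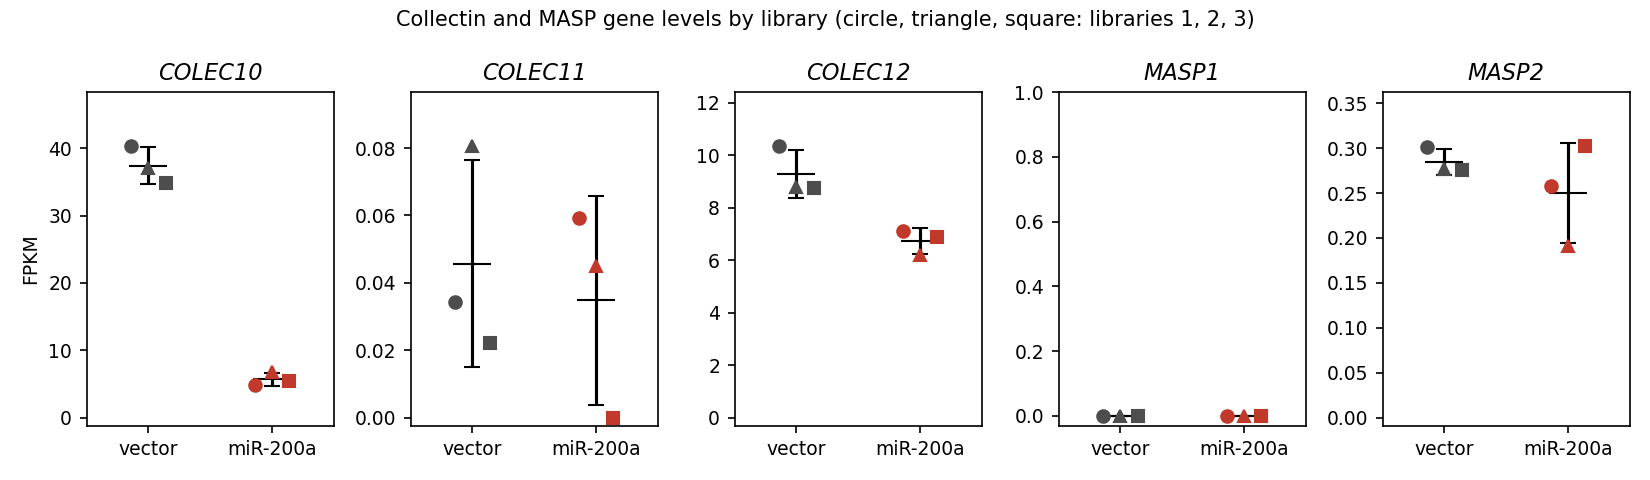
FPKM of the 5 member genes in each library, one panel per gene with its own linear axis; grey points are vector libraries, red points miR-200a libraries, and the bars give mean and SD (n = 3 each). COLEC10 lies at 34.9 to 40.3 FPKM with the vector and 4.90 to 6.75 with miR-200a, COLEC12 shows a smaller gap without overlap, COLEC11 and MASP2 overlap, and MASP1 is at 0 throughout.

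COLEC12, the membrane-bound relative, was also lower with miR-200a, by much less. COLEC12 (ENSG00000158270, chromosome 18, 316740 to 500722, minus strand) stood at 10.3, 8.77 and 8.77 FPKM in vector libraries 1 to 3. With miR-200a it stood at 7.12, 6.18 and 6.87 FPKM in libraries 1 to 3. Every miR-200a library was below every vector library, and here library 2 was the lowest of its group, whereas for COLEC10 it was the highest. The means were 9.29 ± 0.909 and 6.73 ± 0.486 FPKM (SD, n = 3 each), a level 27.6% lower, or -0.41 as a difference in log2(FPKM + 1). Without miR-200a 2 that difference was -0.36 for COLEC12 and -2.64 for COLEC10.

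COLEC10 and COLEC12 were the 2 members that reached that FPKM filter, and in both the groups did not overlap. Over all tested genes 10.7% were lower and 8.29% higher with no overlap between the groups. No such share was computed for genes below the filter. Since the members were chosen on this comparison, nothing is read from their count. By limma across all tested genes, with a Benjamini-Hochberg adjusted p under 0.05 as the threshold, 0.286% were higher and 0.114% lower.

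The ratio of COLEC10 to COLEC12 differed between the groups. Within a library, COLEC10 FPKM was 3.90, 4.23 and 3.98 times COLEC12 FPKM in vector libraries 1 to 3. With miR-200a the ratio was 0.687, 1.09 and 0.789 in libraries 1 to 3, so COLEC12 was the higher gene in libraries 1 and 3, and the FPKM ranges of the genes overlapped. Of the summed FPKM of the 5 members, COLEC10 made up 79.1 to 80.2% in vector libraries and 39.7 to 51.2% in miR-200a libraries. The ratio within a library does not depend on library scaling, but it does depend on gene length. The deposited lengths, 1670 bases for COLEC10 and 7340 for COLEC12, cover all annotated exons. With the length of the coding transcript of each gene instead (1266 and 5742 bases), the ratios were 4.02 to 4.36 in vector libraries and 0.709 to 1.13 in miR-200a libraries.

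**Figure D2:**
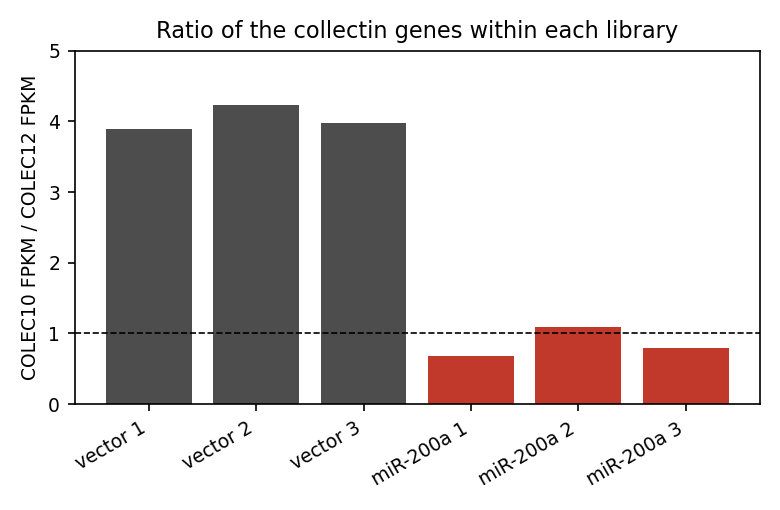
COLEC10 FPKM divided by COLEC12 FPKM in each library (bars from 0, grey for vector and red for miR-200a); the dashed line marks equal levels. The vector libraries stand at 3.90 to 4.23 and the miR-200a libraries at 0.687 to 1.09.

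COLEC11, whose product pairs with that of COLEC10, was near the limit of detection. COLEC11 (ENSG00000118004, chromosome 2, 3594832 to 3644644) had 2, 4 and 1 reads in vector libraries 1 to 3 and 3, 2 and 0 in miR-200a libraries 1 to 3. In FPKM this was 0.0457 ± 0.0308 with the vector and 0.0348 ± 0.0309 with miR-200a (SD, n = 3 each). The groups overlapped, and the 7 and 5 summed reads had 95% Poisson intervals of 2.81 to 14.4 and 1.62 to 11.7, so a difference was not detectable at this depth. Such intervals cover counting error only.

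Of the protease genes, MASP1 gave no reads and MASP2 few. MASP1 (ENSG00000127241, chromosome 3, 187217285 to 187292022), which encodes the proteases MASP-1 and MASP-3 and a shorter inhibitory product, was listed at 0 in all 6 libraries. A count of 0 allows up to 3 reads, or 0.0108 to 0.0143 FPKM depending on the library. MASP2 (ENSG00000009724, chromosome 1, 11026523 to 11047233), which encodes the C4-cleaving protease MASP-2 and the truncated MAp19, had 27, 21 and 19 reads in vector libraries 1 to 3. With miR-200a it had 20, 13 and 24 reads. The levels were 0.285 ± 0.0146 FPKM with the vector and 0.251 ± 0.0557 with miR-200a (SD, n = 3 each), and the groups overlapped. The coefficient of variation of MASP2 was 22.2% with miR-200a and 5.13% with the vector, where counting alone gives 22.9% and 21.2%, so from 3 libraries this measure is imprecise. COLEC12 stood 22.7 to 34.3 times higher than MASP2 within a library.

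In order of level, the vector libraries all had COLEC10 above COLEC12, then MASP2, COLEC11 and MASP1. Neighbours in that order lay apart beyond their spread, except that COLEC11 and MASP1 both stood at or near 0. In the miR-200a libraries COLEC10 and COLEC12 did not lie apart, and MASP2 stood above COLEC11. Gene values cannot separate the products that MASP1 or MASP2 make from alternative transcripts. The sources used here do not say whether reads were counted by strand, and opposite-strand genes share exon bases with COLEC12 (545 of 7340), MASP1 (217 of 13161), MASP2 (75 with 1 gene and 72 with another, of 4251) and COLEC11 (86 of 2778). The opposite-strand gene at COLEC12, AP000915.1, was listed at 0 in all libraries.

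Around COLEC10, 3 small noncoding loci and the coding gene MAL2 had few reads, with fewer in total with miR-200a than with the vector; of these 4 only RNU6-12P reached the filter, and it did not pass the limma test. The coding genes nearest to COLEC10 with higher levels differed in direction. The antisense gene AC107953.2 (chromosome 8, 119062942 to 119068782, minus strand) spans the start of the coding COLEC10 transcript but shares 0 exon bases with COLEC10. That transcript starts at 119067241. The annotated COLEC10 start, 118995452, is that of a noncoding transcript. Loci described below by their distance before the annotated start thus lie further from the coding start. AC107953.2 had 21, 13 and 11 reads in vector libraries 1 to 3 and 3, 3 and 2 reads with miR-200a, without overlap. Per scaled library the vector level was 5.40 times the miR-200a level (exact 95% interval 2.52 to 13.3, counting error only). For COLEC10 itself the same ratio of reads was 6.68. AC107953.2 lies below the filter and was named after its values were seen.

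The pseudogene AC107953.1, 12.6 kb before the annotated COLEC10 start, had 9, 1 and 4 reads with the vector and 2, 0 and 0 with miR-200a. Its groups overlapped, and it too was below the filter and was named after its values were seen. MAL2, which encodes a membrane protein of apical transport and lies 58.5 kb beyond COLEC10, had 12, 7 and 16 reads with the vector and 5, 2 and 0 with miR-200a. Its FPKM values did not overlap between the groups, it was below the filter and so untested, and it was named after its values were seen. RNU6-12P, a copy of the U6 small nuclear RNA 18.8 kb before that start, had 5, 3 and 6 reads with the vector and 0, 0 and 2 with miR-200a. For AC107953.1 and RNU6-12P alike the ratio of reads was 6.72, with an exact 95% interval of 1.54 to 60.9. RNU6-12P passed the filter but not the test (limma adjusted p = 0.177). It is 107 bases long, so 2 reads gave 1.00 FPKM in miR-200a library 3. Its vector libraries alone were enough to meet the filter. U6 copies are nearly identical, and how reads matching several genes were counted was not stated, so its level is uncertain. Without strand, reads from introns or flanks of COLEC10 cannot be told apart from reads of the minus-strand genes AC107953.1 and AC107953.2. RNU6-12P lies on the plus strand like COLEC10, so strand would not separate its reads.

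TNFRSF11B, the gene of the RANKL decoy receptor osteoprotegerin, lies on the minus strand, 43.3 kb before the annotated COLEC10 start. Its level was higher with miR-200a in each library. It stood at 45.4, 44.3 and 46.0 FPKM with miR-200a and at 37.8, 34.6 and 34.5 with the vector (log2 difference 0.34, SE 0.070, limma adjusted p = 0.142). NOV, which encodes the matricellular protein CCN3, lies 309.7 kb beyond COLEC10 and was lower in each library. It stood at 8.23, 8.48 and 8.69 FPKM with miR-200a and at 11.4, 12.3 and 11.5 with the vector (log2 difference -0.43, SE 0.067, limma adjusted p = 0.0655; 0.0479 without miR-200a 2, and up to 0.340 over the alternatives). SAMD12 averaged 1.40 FPKM in the miR-200a group and 1.62 in the vector group, the transcription factor subunit gene TAF2 13.5 and 14.2, and the sister chromatid cohesion gene DSCC1 8.37 and 9.08, each with overlapping groups.

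Of 28 genes within 1 Mb of COLEC10, 7 were tested and 0 passed by limma, against 0.401% of all tested genes (35 higher, or 0.286%, and 14 lower, or 0.114%, of 12231). At an unadjusted p under 0.05 there were 1 higher and 2 lower neighbours, where 13.3% of all tested genes lay under 0.05. Voom on recovered reads, another limma method, also called 0. The median log2 difference of the tested neighbours was -0.103, beside -0.009 over all tested genes. For the other members, 0 of 7 tested genes near COLEC11, 0 of 7 near COLEC12, 0 of 12 near MASP1 and 0 of 17 near MASP2 passed by limma, with 0, 0, 0 and 4 at an unadjusted p under 0.05.

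**Figure D3:**
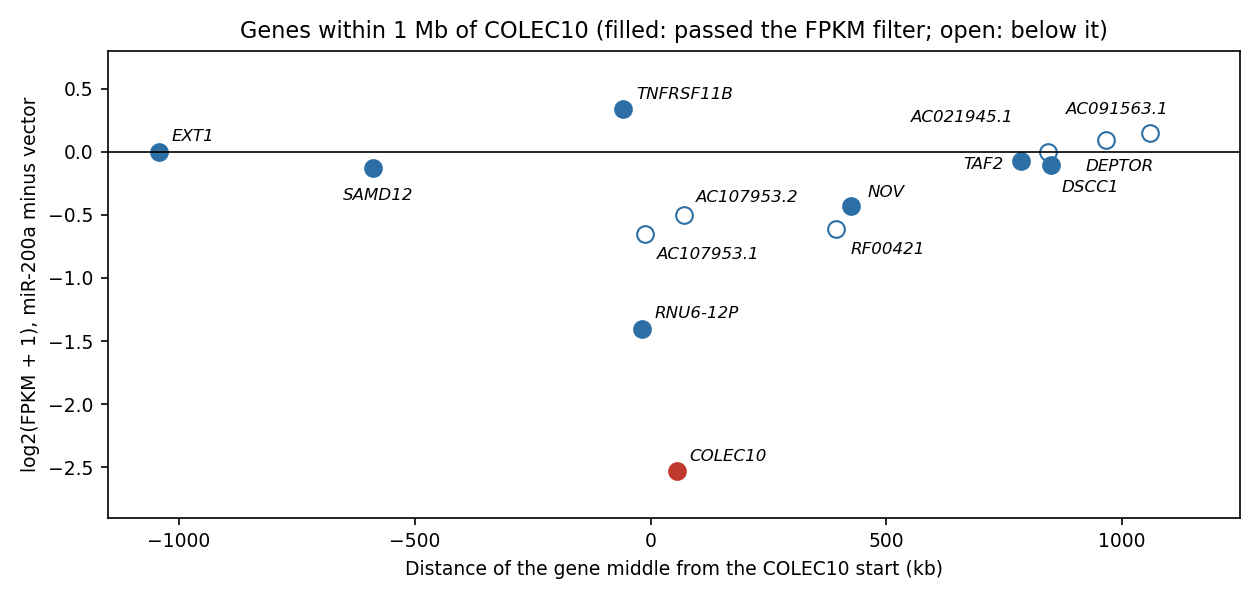
Difference in mean log2(FPKM + 1), miR-200a minus vector, for COLEC10 (red) and the genes within 1 Mb of it that averaged over 0.2 FPKM (blue), against the distance of each gene's middle from the COLEC10 start in kb; filled points passed the FPKM filter. COLEC10 lies at -2.53, RNU6-12P at -1.40 and AC107953.1 and AC107953.2 at -0.65 and -0.50, while TNFRSF11B lies at 0.34.

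RNA levels of the rest of the lectin pathway were low, except for the membrane-bound regulators CD46, CD55 and CD59. CR1, also membrane-bound, averaged 0.0327 FPKM over all libraries. The other recognition molecules of the pathway, MBL2, FCN1 to FCN3 and the surfactant collectins SFTPA1, SFTPA2 and SFTPD, stayed at or below 0.0424 FPKM in every library, and 5 of these 7 were listed at 0 in all. SFTPD and FCN3 were those with any reads, averaging 0.0138 and 0.00904 FPKM over all libraries. Of the 5 complement components the pathway acts on, none reached the filter. C3, the central component, had 218, 148 and 143 reads in vector libraries 1 to 3 and 88, 57 and 112 in miR-200a libraries 1 to 3, that is 1.10 ± 0.129 FPKM against 0.576 ± 0.146 (SD, n = 3 each) without overlap and without a test. C5, C4A and C2 averaged 0.128, 0.0575 and 0.0268 FPKM over all libraries. C4A and C4B are near-identical copies, so their separate levels are uncertain.

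Of 11 inhibitors and regulators, CD46, CD55 and CD59 were tested, and 0 passed by limma. CD46, a cofactor for the cleavage of deposited C3b and C4b, stood at 64.7, 68.7 and 67.7 FPKM with the vector and at 51.6, 61.4 and 50.7 with miR-200a. Its groups did not overlap (log2 difference -0.30, SE 0.092, limma adjusted p = 0.285), and the limma adjusted p was 0.0492 without miR-200a 2 and ran up to 0.773 over the alternatives. CD55, which speeds the decay of the C3 convertases, averaged 13.9 FPKM in the miR-200a group and 13.1 in the vector group. CD59, which blocks the membrane attack complex, averaged 86.7 and 90.9 FPKM, and both overlapped. SERPING1, the gene of C1 inhibitor, which also inactivates the MASPs, was below the filter, with 10, 5 and 1 reads in vector libraries 1 to 3 and 28, 14 and 25 reads under miR-200a, so its groups did not overlap. Its vector level was 0.0755 ± 0.0574 FPKM and its miR-200a level 0.347 ± 0.0940 (SD, n = 3 each).

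Of 3 genes of proteins reported to bind collectins, 2 were tested and 0 passed by limma, also at an unadjusted p under 0.05. CALR, the endoplasmic reticulum chaperone calreticulin, stood at 342 ± 26.4 FPKM in miR-200a cells and 304 ± 23.4 in vector cells (SD, n = 3 each; limma adjusted p = 0.460). The endocytic receptor gene LRP1 stood at 18.4 ± 3.66 and 20.5 ± 2.73 FPKM (n = 3 each; limma adjusted p = 0.647). CD93 was below the filter at 0.348 and 0.275 FPKM. In both tested genes the groups overlapped.

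Among the tested genes related to the collectins by structure, MSR1, THBD and VCAN had groups that did not overlap, and 0 passed by limma. Over all tested genes, 19.0% had groups that did not overlap. MSR1, a class A scavenger receptor like COLEC12, stood at 3.06, 3.75 and 3.09 FPKM with miR-200a and 2.62, 2.40 and 2.70 with the vector, the opposite order to COLEC12 (limma adjusted p = 0.325). Of the other members of that class, SCARA3 averaged 0.126 and MARCO 0.0510 FPKM over all libraries, and SCARA5 was listed at 0. Of 42 other C-type lectin genes, 8 were tested and 19 were listed at 0 in all libraries. Of the untested ones, CLEC3B, CLEC18A and LY75 had higher FPKM with miR-200a without overlap, at 15 reads or fewer in each library. They were named after their values were seen. CLEC3B had 1 read in each miR-200a library and 0 in each vector library. The share of untested genes without overlap was not computed, so nothing is read from these genes.

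THBD, the gene of thrombomodulin, an anticoagulant membrane protein with a C-type lectin domain, came nearest to a call. It stood at 35.9, 32.4 and 34.8 FPKM with the vector and at 23.7, 20.4 and 24.5 with miR-200a (log2 difference -0.57, SE 0.091, limma adjusted p = 0.0669). Its limma adjusted p was 0.0441 without miR-200a 2 and 0.0167 by voom on recovered reads, and ran up to 0.285 over the alternatives. VCAN, the gene of the matrix proteoglycan versican, stood at 26.7, 22.5 and 21.1 FPKM with the vector and 17.4, 17.9 and 18.1 with miR-200a (limma adjusted p = 0.222). CLEC11A, a secreted growth factor gene, ranged from 118 to 213 FPKM within the vector group, around the miR-200a values of 169 to 187. MRC2, an endocytic collagen receptor gene, averaged 20.1 FPKM in the miR-200a group and 15.6 in the vector group, with overlapping groups.

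Over these 6 lists together, 14 of 72 genes were tested and 0 passed by limma. At an unadjusted p under 0.05 there were 3 lower (CD46, THBD and VCAN) and 1 higher (MSR1), where 6.35% and 6.92% of all tested genes were lower and higher at that level. Without miR-200a 2 the limma calls were 2, THBD and CD46, while 160 genes were higher and 65 lower over the whole table. The median log2 difference of the 14 was -0.043, beside -0.009 over all tested genes, and the members are not counted among them.

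**Figure D4:**
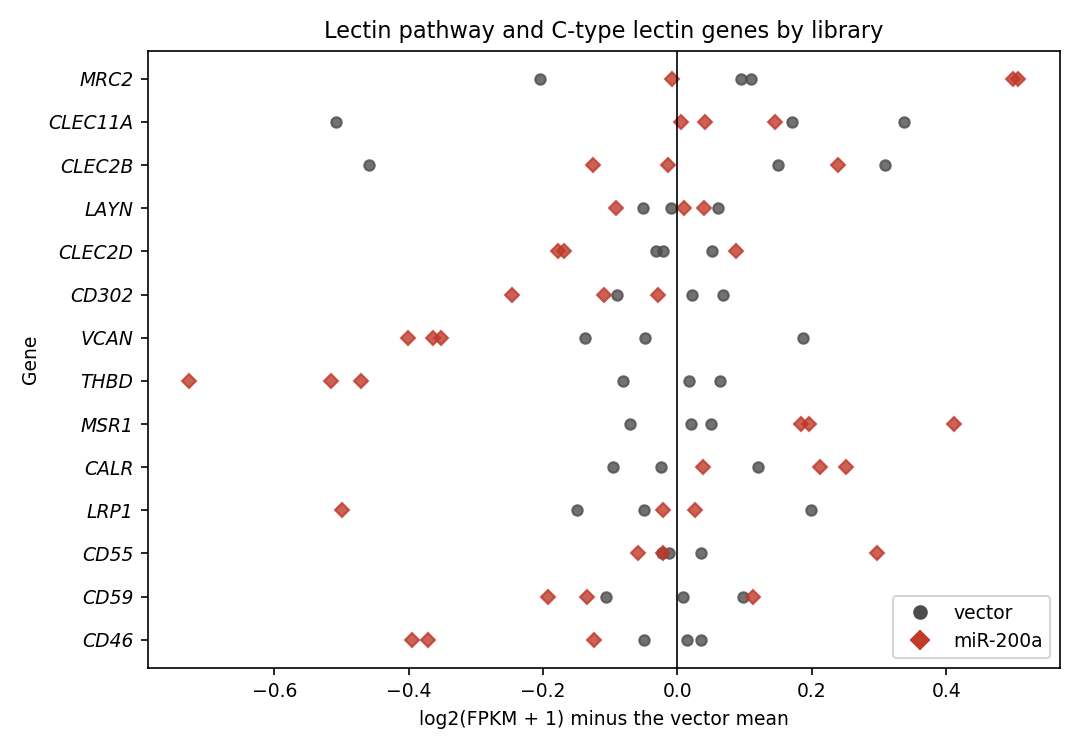
log2(FPKM + 1) of each library minus the vector mean for the 14 tested genes of the lectin pathway, scavenger receptor and C-type lectin lists; grey circles are vector libraries and red diamonds miR-200a libraries. THBD, VCAN and CD46 lie to the left of all vector libraries and MSR1 to the right, while the other 10 genes overlap.

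Genes whose levels ran most like those of COLEC10 over the 6 libraries were ranked by Pearson's r of log2(FPKM + 1), as a description. The libraries form 2 groups, so a gene that differs between them gets a high r, and 223 of 9457 ranked genes had an r of at least 0.95 in size. Among the highest r were those of the long noncoding RNA RGMB-AS1 (0.997), the gene of a small nuclear RNA transcription factor subunit SNAPC1 (0.997), the ubiquitin ligase gene RNF145 (0.995) and the lysosomal amino acid sensor gene SLC38A9 (0.995). These genes differed far less than COLEC10, RGMB-AS1 standing at 8.26 FPKM with miR-200a against 12.1 with the vector, and SLC38A9 at 1.73 against 2.60. The lowest r belonged to the long noncoding RNA UCA1 (-0.996), the kinetochore gene CENPM (-0.995), the Wnt ligand gene WNT7A (-0.995), the glycodelin gene PAEP (-0.994) and C6orf141 (-0.992). For COLEC12 the r with COLEC10 was 0.904.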

How the data were processed

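The authors deposited a table of FPKM values for 58735 genes and 6 libraries, with the aligner, counter and strand setting not given in the sources. Mouse builds (GRCm38, mm10) appear in the submitters' processing notes, but all 58735 gene starts and ends equalled those of human GENCODE 29, so coordinates are on GRCh38. FPKM times gene length gave whole reads for 100% of nonzero values, within 0.001 of a read. The 12231 genes with at least 1 FPKM in at least 3 libraries entered limma (version 3.58.1, R 4.3.3; trend, two-sided, Benjamini-Hochberg, threshold 0.05) on log2(FPKM + 1), which understates changes of low genes. The fit was tested on simulated reads that had the same variation setting for every gene and no library standing apart. That simulation therefore does not cover the shift of calls without miR-200a 2. The members, gene lists and rules were chosen with earlier results of these data known. Besides the members, the text names up to 4 genes per list by mean FPKM, the 6 nearest COLEC10 neighbours averaging at least 1 FPKM, and 5 genes at each end of the ranking by r, among tested genes of at least 2 FPKM; 1 of these is not reported here. Libraries with the same replicate number deviated together with correlations of 0.143, 0.366 and -0.006, and those with different numbers with -0.266 to 0.203. These values do not settle whether the numbers pair the libraries, and the main fit did not take them as pairs.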

Additional observations from a re-analysis of the deposited data

How the results depend on the processing

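COLEC10 and COLEC12 were lower with miR-200a under every alternative run for them. The COLEC10 log2 difference was -2.71 with a pseudocount of 0.1 and -2.74 by voom, beyond 1 SD between libraries, and ran from -2.64 to -2.44 with 1 library left out; that of COLEC12 ran from -0.45 to -0.34. For COLEC11 and MASP2 no voom or block value was computed, as they lie below the filter, and for MASP1 no alternative was run, as all its values are 0. Genes called higher and lower over the table, 35 and 14, were 4 and 1 without a filter, where 31124 genes were tested, and 81 and 33 by voom; 9 were lower after rescaling to TPM. With 1 library left out they ran from 4 to 160 higher and 2 to 65 lower, both highs without miR-200a 2. Calls in the pathway lists, 0, were 1 (THBD) by voom and 0 to 2 with 1 library left out, and calls near COLEC10, 0, were 0 to 1 (NOV, without miR-200a 2). With the replicate block, 48 genes were higher and 21 lower. In that setting 1 pathway gene was called (THBD, limma adjusted p = 0.0442) and 1 neighbour of COLEC10 (RNU6-12P, limma adjusted p = 0.0283, up to 0.516 over the alternatives). Whether the replicate numbers pair the libraries is not known, so the block is given only as an alternative. The cause of these shifts was not tested. Depth limits COLEC11, MASP2 and the loci with few reads beside COLEC10.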
